A study of Arabidopsis thaliana with 6 samples.

Results

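The BRXL2 line was compared with the line labelled BRX over every locus of the Arabidopsis thaliana count tables, with 2 sorted-cell RNA libraries a line, 4 of the 6 libraries of the series. The BRXL2 plants carried BRXL2p:BRXL2-YFP and the plants of the other line BRXp:BRX-YFP. The remaining 2 libraries came from myrBRXp:myrBRX-YFP plants and are given as context. All plants were of the Columbia ecotype, and each construct is a protein fused to yellow fluorescent protein behind the promoter named in the label. The labels name no mutant background and do not say how many transformants a line stands for. Cells were sorted from true leaves 9 days post germination, after 2 days of cold and growth at 22 °C with 16 h of light and 8 h of dark a day. A library was made by amplifying 20 ng of RNA from about 20000 cells (integrity number above 8). Which fluorescence gate was used is not given in the sources used here.

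BREVIS RADIX (BRX) family proteins sit at the plasma membrane, where several take up a polar position. In the leaf epidermis they act with the polarity protein BASL in the asymmetric divisions of the stomatal lineage, and in the root BRX is required for protophloem differentiation. By the title of the series the cells are stomatal lineage ground cells. These are the larger daughters of such divisions, which can become pavement cells or divide again to place a further stoma. BRXL2 is a close relative of BRX with its own promoter, so both lines are reporters as well as sources of tagged protein.

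The genes of the constructs were read first, because they check the labels. BRXL2 (ATBRXL2, AT3G14000) had 1570 and 1378 CPM (TMM-scaled counts relative to library size) in the BRXL2 libraries, against 150 and 95.5 CPM in the libraries labelled BRX. The lines did not overlap, and the log2 fold change was 3.58 ± 0.95 (SE; adjusted p = 0.365, edgeR quasi-likelihood test). BRX (AT1G31880) had 22.7 and 31.9 CPM in the BRXL2 libraries, against 6.10 and 11.7 CPM in the libraries labelled BRX and 32.4 and 72.7 CPM in myrBRX. The difference in BRX between BRXL2 and the libraries labelled BRX did not pass (log2 fold change 1.61 ± 0.82, adjusted p = 0.596, edgeR quasi-likelihood test). By the levels above, the line labelled with the BRX construct held the least BRX transcript of the 3 lines. It is called the libraries labelled BRX throughout. Every direction below carries the doubt that this label was not borne out by the BRX level.

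The libraries held 35981786 and 42113178 counts in BRXL2, and 25817906 and 35490278 counts in the libraries labelled BRX. Chloroplast and mitochondrial loci took 1.71% and 2.32% of the counts in BRXL2, against 5.34% and 3.77% in the libraries labelled BRX. Libraries of a line were not much more alike than libraries of different lines. The correlation of log2 CPM across loci (not a set of independent replicates) was 0.765 between the BRXL2 libraries, 0.737 between the libraries labelled BRX and 0.688 to 0.764 between the lines. BRX replicate 2 correlated more with both BRXL2 libraries (0.753 and 0.764) and both myrBRX libraries (0.8 and 0.766) than with BRX replicate 1. The stomatal lineage gene TMM was present at 208 and 303 CPM in BRXL2 and 186 and 322 CPM in the libraries labelled BRX. Since RNA came from many cells at once, fewer cells of a type and less RNA per cell cannot be told apart.

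Of 33602 loci, 18174 passed the filter on low counts. A locus is called separated here when both libraries of a line lay above both of the other. Both BRXL2 libraries lay above both labelled BRX at 3330 loci (18.3% of those tested) and below both at 2709 (14.9%). The gap is the distance between the nearest libraries of the lines on a log2(CPM + 1) scale, so a gap of 2 is a 4-fold step between the libraries most alike. A gap of at least 2 was reached by 156 loci with BRXL2 above (0.858%) and by 47 with BRXL2 below (0.259%). Without BRX replicate 2 the wide counts turned round, to 690 above and 742 below. The share of loci with BRXL2 above that had no counts at all in either library labelled BRX was 51 of the 156 at the wide gap and 440 of the 3330 overall. No such locus, with 0 counts in both BRXL2 libraries, was among the 47 below.

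**Figure D1:**
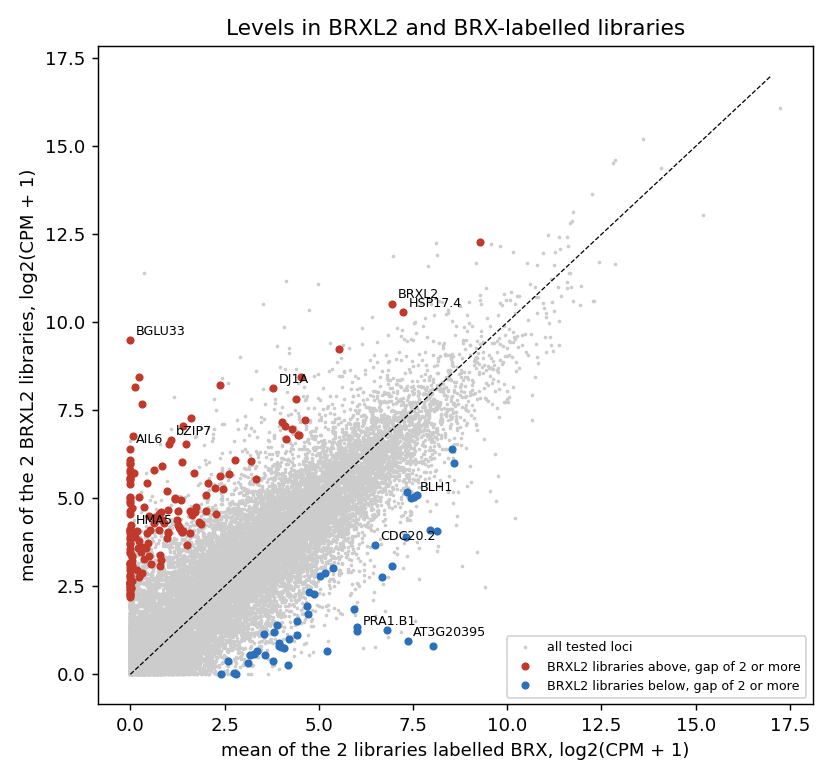
Mean level of each tested locus in the 2 BRXL2 libraries (vertical) and the 2 libraries labelled BRX (horizontal), on a log2(CPM + 1) scale, with the line of equal levels dashed. Red points are the 156 loci with BRXL2 above by a gap of at least 2, many of them on the left edge at 0 in the libraries labelled BRX, and blue points are the 47 loci with BRXL2 below.

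By the edgeR test, 17 loci passed an adjusted p of 0.05 (0.0935%), 16 of them higher in BRXL2 (0.088%) and 1 lower (0.0055%). Most of the 16 held 0 counts in both libraries labelled BRX, so they could not lie lower in BRXL2. With a minimum of 50 counts in the filter, 4 of the 17 passed. Far more loci were at an unadjusted p under 0.05, with 1048 higher (5.77%) and 561 lower (3.09%). The calls depended on the libraries: without BRX replicate 1 only 4 of the 17 passed, and with the 4 compared libraries fitted alone 0 passed, with 759 higher and 347 lower at an unadjusted p under 0.05. An exact permutation test of 2 libraries against 2 cannot go below p = 0.33 (two-sided), so separation is given as a description.

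The 2 BRXL2 libraries did not contribute alike. BRXL2 replicate 1 exceeded replicate 2 at 100 of the 156 widely separated loci above in BRXL2, and at 9289 of the 18174 tested. The position of myrBRX was counted by rank alone: it lay between the lines when both its libraries were above one line and below the other. A wider gap leaves more room for this. Where the libraries labelled BRX held no counts, any count in each myrBRX library below both BRXL2 libraries sufficed. The shares at different widths of the gap therefore cannot be compared. Over all 3330 loci separated above, BRXL2 stood apart from the other 4 libraries at 37.6% and the libraries labelled BRX at 41.1%; over the 2709 below, these shares were 33.6% and 47.6%. At the 156 loci, BRXL2 stood apart from the other 4 libraries at 80 (51.3%), the libraries labelled BRX stood apart at 22 (14.1%), and myrBRX lay between the lines at 54 (34.6%). At the 47 loci with BRXL2 below, the libraries labelled BRX stood apart from the other 4 at 21 (44.7%), BRXL2 at 8, and myrBRX lay between at 18 (38.3%). Widely separated loci had a median transcript length of 1740 and 1759 bases above and below in BRXL2, against 1774 bases over all tested loci, and their median GC content was 40.9% and 42.0%, against 41.5%.

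The 15 widest gaps above in BRXL2 were taken among nuclear genes with a symbol, at least 10 CPM in BRXL2 and outside the list of phloem and vascular markers. They included the AP2-type factors AIL6 and AIL5, which act in meristems and young organs, and the NAC factors NAC028 and NAC096. The leucine zipper factor bZIP7 and the Dof factors HCA2 and DAG2 were also among them. AIL6 (AT5G10510) had 74.7 and 93.8 CPM in BRXL2 and 0 in both libraries labelled BRX, with 0.12 and 0.234 CPM in myrBRX. It was at least 883.5-fold higher (adjusted p = 0.0104), taking 3 counts a library as the floor for a count of 0. AIL6 and AT3G20395, described further on, passed without each library in turn, as did APL and AT5G57130 of the phloem and vascular list.

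AIL5 (AT5G57390) had 16.3 and 11.7 CPM in BRXL2 and 0 in both libraries labelled BRX, at least 146.7-fold higher, but did not pass (adjusted p = 0.29). NAC028 (AT1G65910) had 37.1 and 26.2 CPM in BRXL2 against 0 and 0 (adjusted p = 0.0302). NAC096 (AT5G46590) had 31.0 and 19.8 CPM in BRXL2 against 2 counts in the libraries labelled BRX together, a ratio of 801 with a counting interval of 222 to 6614 (95%; adjusted p = 0.0344). Both NAC genes stayed at or below 0.0903 CPM in myrBRX, and neither passed without BRX replicate 1 (adjusted p = 0.0509 for NAC028 and 0.0755 for NAC096). NAC096 also missed the threshold without BRX replicate 2 (0.0524) or BRXL2 replicate 1 (0.0819). In the NAC family, 7 of 37 members tested were separated above (18.9%, against 18.3% of all tested loci) and 7 below (18.9%, against 14.9%). NAC075 was also above, at 12.6 and 7.95 CPM in BRXL2 against 1.98 and 0.496 CPM, while NAC083, a regulator of xylem vessel formation, was below at 7.12 and 25.6 CPM against 41.3 and 82.9 CPM.

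bZIP7 (AT4G37730) had 142 and 58.0 CPM in BRXL2, against 0.549 and 1.65 CPM in the libraries labelled BRX. The lines were far apart, with myrBRX between at 10.5 and 7.396 CPM. The log2 fold change was 6.50 ± 1.06 and fell just short of the threshold (adjusted p = 0.0523).

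**Figure D2:**
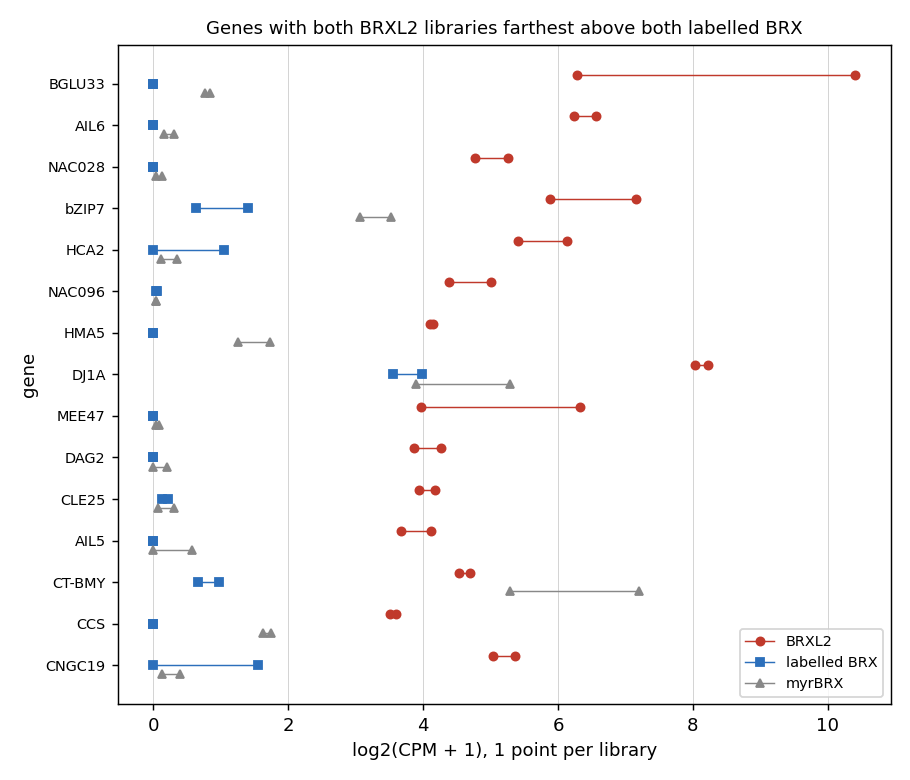
Levels per library, log2(CPM + 1), of the 15 genes with the widest gap above in BRXL2 among those with a symbol and at least 10 CPM in BRXL2, leaving out the phloem and vascular markers. Red circles are BRXL2, blue squares the libraries labelled BRX and grey triangles myrBRX; a line joins the 2 libraries of a line. The blue squares of each gene lie left of its red circles, and BGLU33 and MEE47 have the most distant pairs of BRXL2 libraries.

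Dof proteins are plant-specific zinc finger factors, several of which act in vascular tissue and others in seed germination and flowering time. Of 36 members, 25 passed the filter, and 20 of these were separated above in BRXL2 (80.0%, against 18.3% of all tested loci) and 3 below (12.0%, against 14.9%). The gap reached 2 at 9 members above, and 1 member, TMO6, passed the test (adjusted p = 0.0411, and 0.0639 without BRX replicate 1). In 12 of the 25, both libraries labelled BRX held 0 counts, so these members entered the test through another line and could only lie at or above it in BRXL2. Of the 13 members with a count in a library labelled BRX, 8 were separated above (61.5%) and 3 below (23.1%), against 16.5% and 15.5% of all tested loci with such a count. The same limit held for 6 of 21 phloem and vascular members, 3 of 15 procambium members, 3 of 16 guard cell members, 4 of 17 beta-glucosidases, and 4 of 19 leaf polarity and 4 of 19 brassinosteroid genes. It also held for 3 of 37 NAC, 2 of 16 glucosinolate, 1 of 11 CLE and 1 of 19 xyloglucan endotransglucosylase genes, among others. The log2 fold changes of the 25 Dof genes had a median of 6.68, against 0.03 over all tested loci. Where a line at 0 was set to its bound, these were 4.58 and 0.02. TMO6, HCA2 and DOF2.4 are known from vascular tissue, and the family list was written with earlier results of these data known.

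HCA2 (AT5G62940), whose overexpression increases cambial activity in stems, had 69.5 and 41.3 CPM in BRXL2, against 1.07 and 0 CPM in the libraries labelled BRX (log2 fold change 6.68 ± 1.61, adjusted p = 0.328). DAG2 (AT2G46590), a positive regulator of germination, had 18.2 and 13.5 CPM in BRXL2 and 0 in both libraries labelled BRX, at least 166.4-fold higher (adjusted p = 0.173). Its relative DAG1 (AT3G61850), which represses germination, showed the same pattern lower down, at 4.104 and 4.71 CPM in BRXL2 against 0 and 0. OBP2, a regulator of glucosinolate synthesis, had 20.0 and 8.54 CPM in BRXL2 against 0 and 0.0992 CPM.

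Among members without a symbol, AT2G28810 had 33.9 and 26.8 CPM in BRXL2 against 2.53 and 0 CPM in the libraries labelled BRX, and AT4G24060 had 7.59 and 8.43 CPM against 0 and 0. Of the 5 members not above, CDF1 and DOF4.7 overlapped between the lines. The others were DOF2 (AT3G21270), DOF1 (AT1G51700) and the cycling Dof factor CDF3, which were lower in both BRXL2 libraries. DOF2 had 0.595 and 0.134 CPM in BRXL2, against 8.21 and 5.19 CPM in the libraries labelled BRX (log2 fold change -4.18 ± 1.65, adjusted p = 0.512). CDF2, a repressor of flowering, was separated above only narrowly, because its 2 BRXL2 libraries stood at 13.4 and 1024 CPM, against 11.4 and 1.62 CPM.

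**Figure D3:**
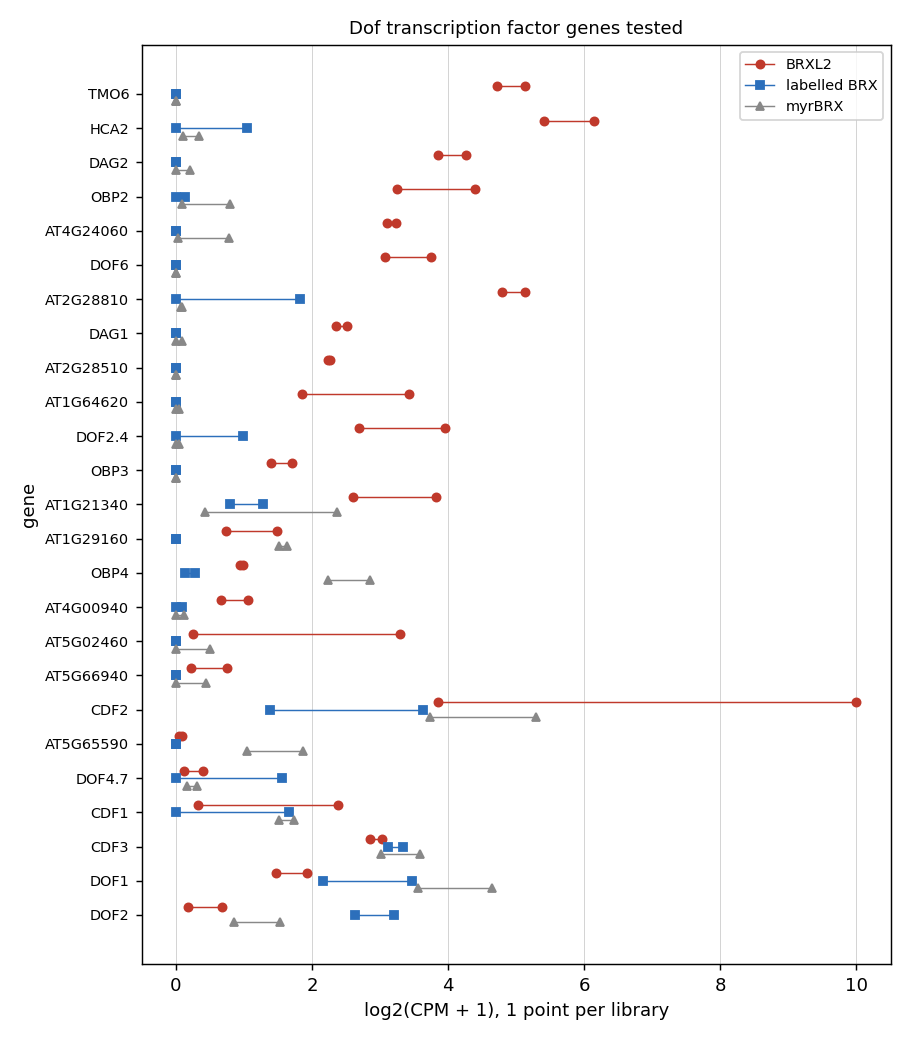
Levels per library, log2(CPM + 1), of the 25 Dof genes that passed the filter, sorted by the gap between BRXL2 and the libraries labelled BRX. Red circles are BRXL2, blue squares the libraries labelled BRX and grey triangles myrBRX; the upper 20 genes have both red circles to the right of both blue squares, and in CDF2 a single BRXL2 library lies far to the right.

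The phloem and vascular markers, a list that mostly repeats known results of this comparison, set the scale for these values. Of 26 members, 21 were tested. Of these, 18 were separated above in BRXL2 (85.7%, against 18.3% of all tested loci) and 0 below (against 14.9%). Where a library labelled BRX held a count, 12 of 15 were above (80.0%, against 16.5%). The summed level of the 21 was 1370 and 773 CPM in BRXL2, 49.7 and 24.4 CPM in the libraries labelled BRX and 56.2 and 33.7 CPM in myrBRX. APL, which specifies phloem identity, held 0 counts in both libraries labelled BRX. SUC2, the sucrose carrier of companion cells, overlapped between the lines at 1.02 and 3.08 CPM in BRXL2 against 10.1 and 2.08 CPM. The called members were APL, SEOa, TMO6, AT5G57130 (SMXL5) and AT4G29920 (SMXL4); the last pair are relatives that promote phloem formation. SEOa, a sieve element protein gene, had 305 and 102 CPM in BRXL2 against 0.122 and 0.364 CPM. The part that phloem cells among the sorted cells may have in the other differences was not tested.

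The procambium and cambium are the dividing tissue between phloem and xylem. Of 15 genes of that list tested out of 25, 6 were separated above in BRXL2 (40.0%, against 18.3%) and 0 below (3 of 12 above where a library labelled BRX held a count), and the median log2 fold change was 1.99. Besides AIL6 and AIL5, the members with the widest gap were PXY, HB-8 and CLE41. PXY (AT5G61480), the receptor kinase that keeps vascular stem cells dividing, had 24.8 and 18.9 CPM in BRXL2, against 2.38 and 1.78 CPM in the libraries labelled BRX. The libraries of each line lay close together (log2 fold change 3.39 ± 1.07, adjusted p = 0.426). AT2G36570, also called PXC1 for its correlation with PXY, had 25.6 and 79.0 CPM in BRXL2 and 0 in both libraries labelled BRX (adjusted p = 0.0289, and 0.0509 without BRX replicate 1).

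The homeodomain genes of vascular patterning were less clear. HB-8 had 5.46 and 0.696 CPM in BRXL2, against 1 count in the libraries labelled BRX together. REV had 13.3 and 31.7 CPM in BRXL2 against 4.33 and 10.1 CPM (log2 fold change 1.64 ± 1.06, adjusted p = 0.699), while its relatives PHB, PHV and ATHB-15 overlapped between the lines. Markers of xylem and secondary wall were near the background, with 1 of 9 tested separated above (11.1%, against 18.3% of all tested loci) and 0 below (against 14.9%).

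CLE25 (AT3G28455), which encodes a signalling peptide of the CLE family, had 14.4 and 17.1 CPM in BRXL2, against 0.0916 and 0.165 CPM in the libraries labelled BRX. The 2 lines were far apart, but the libraries labelled BRX held only 3 and 5 counts, near the floor of 3 (log2 fold change 6.90 ± 1.55, adjusted p = 0.255). Of 11 CLE genes tested out of 30, 4 were separated above (36.4%, against 18.3% of all tested loci) and 0 below (against 14.9%). Of the 11, 9 had a log2 fold change above 0. Where a library labelled BRX held a count, 3 of 10 were above (30.0%, against 16.5%). The auxin efflux carrier gene PIN4 was separated above, at 18.3 and 26.1 CPM in BRXL2 against 10.3 and 2.38 CPM (log2 fold change 1.80 ± 1.11, adjusted p = 0.68). PIN3 overlapped, at 40.8 and 7.76 CPM in BRXL2 and 42.0 and 5.59 CPM in the libraries labelled BRX.

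Among the other genes with the 15 widest gaps, a pair of copper genes had BRXL2 libraries that matched closely. HMA5 (AT1G63440), a copper-transporting ATPase, had 16.2 and 16.7 CPM in BRXL2 and 0 in both libraries labelled BRX, with 1.38 and 2.32 CPM in myrBRX. It was at least 172.3-fold higher and did not pass (adjusted p = 0.0657). CCS (AT1G12520), the chaperone that loads copper into superoxide dismutase, had 10.4 and 11.1 CPM in BRXL2 against 0 and 0, with 2.35 and 2.08 CPM in myrBRX (at least 112.7-fold higher, adjusted p = 0.12).

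DJ1A (AT3G14990), a relative of the human stress protein DJ-1, was expressed in all libraries, at 260 and 299 CPM in BRXL2 against 14.8 and 10.8 CPM in the libraries labelled BRX. The lines did not overlap, and every library was far above the floor of 3 counts (log2 fold change 4.45 ± 0.91, adjusted p = 0.168). CT-BMY (AT4G17090), a chloroplast beta-amylase of starch breakdown, had 24.9 and 22.1 CPM in BRXL2 against 0.58 and 0.959 CPM (log2 fold change 4.93 ± 0.99, adjusted p = 0.153). Here the libraries labelled BRX were the low ones of the series, because myrBRX held 38.04 and 146 CPM. CNGC19, a cyclic nucleotide-gated calcium channel, had 39.9 and 32.0 CPM in BRXL2 against 1.92 and 0 CPM (adjusted p = 0.426).

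Beta-glucosidases free aglycones such as hormones and defence compounds from sugar conjugates. Of 17 tested, 8 were separated above in BRXL2 (47.1%, against 18.3% of all tested loci) and 1 below (5.88%, against 14.9%). Where a library labelled BRX held a count, 4 of 13 were above (30.8%, against 16.5%). BGLU33 had 1359 and 76.7 CPM in BRXL2 and 0 in both libraries labelled BRX. It passed (adjusted p = 0.0289, and 0.0593 without BRX replicate 1), but its 2 BRXL2 libraries were far apart. BGLU18, which releases abscisic acid from its glucose ester, had 5.25 and 13.0 CPM in BRXL2 against 2 counts in the libraries labelled BRX together, a ratio of 288 (counting interval 79.8 to 2379). MEE47, a gene named for an embryo arrest phenotype, was similarly uneven at 78.9 and 14.6 CPM in BRXL2 against 0 and 0. It passed at an adjusted p of 0.0302, and not without BRX replicate 1 (0.0593) or BRXL2 replicate 1 (0.1).

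The remaining called genes shared this unevenness. ENODL9, an early nodulin-like gene, had 83.7 and 10.1 CPM in BRXL2, AT1G70470 (an uncharacterised protein) 113 and 11.4 CPM, and AT1G68330 (a membrane-associated kinase regulator) 65.2 and 24.1 CPM. AT1G73850, annotated with a DUF1666 domain, had 59.3 and 23.1 CPM in BRXL2, and AT1G26730, an EXS family gene, had 47.5 and 14.6 CPM. All 5 held 0 counts in both libraries labelled BRX and were highest in BRXL2 replicate 1. None of the 5 passed without BRX replicate 1, and ENODL9, AT1G70470, AT1G68330 and AT1G26730 did not pass without BRXL2 replicate 1 (adjusted p = 0.0571 to 0.174); AT1G68330 also missed without BRX replicate 2 (0.0511).

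Some genes with moderate levels in both lines were also widely separated, chosen here after their values were seen. ROPGEF5, an activator of ROP GTPases, had 40.1 and 44.9 CPM in BRXL2 against 3.23 and 3.04 CPM in the libraries labelled BRX (log2 fold change 3.76 ± 0.90, adjusted p = 0.328). FY, a messenger RNA 3' end processing factor of flowering time control, had 100 and 120 CPM in BRXL2 against 20.9 and 20.6 CPM. APE2, the triose phosphate translocator of the chloroplast envelope, had 107 and 155 CPM against 15.04 and 17.39 CPM. GSL11, a callose synthase-like gene, had 81.5 and 49.9 CPM against 10.3 and 6.08 CPM. The glutamate receptor-like channel gene GLR3.4 had 47.2 and 45.1 CPM against 9.43 and 8.70 CPM. In each of these 5 genes the libraries of a line differed by less than the distance to the other line, and no adjusted p passed.

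Stomatal lineage genes split. Of 26 tested out of 27, 4 were separated above in BRXL2 (15.4%, against 18.3%) and 7 below (26.9%, against 14.9%), with a median log2 fold change of -0.59. Those above by a gap of at least 2 were MUTE, which commits cells to the guard mother cell, and EPF1, a secreted peptide made by late precursors that spaces stomata. MUTE had 13.4 and 11.1 CPM in BRXL2 against 0.763 and 0 CPM. EPF1 (AT2G20875) had 6.78 and 11.8 CPM in BRXL2, against 0.61 and 0.198 CPM in the libraries labelled BRX (log2 fold change 4.51 ± 1.49, adjusted p = 0.431). Those below included ER, the ERECTA receptor kinase of the spacing peptides, at 73.5 and 120 CPM in BRXL2 against 246 and 283 CPM (log2 fold change -1.45 ± 0.78, adjusted p = 0.615). AT4G31805, which encodes the polarity protein POLAR, had 30.7 and 40.1 CPM in BRXL2 against 741 and 88.3 CPM. ICE1, the partner of the lineage bHLH factors, had 160 and 164 CPM against 544 and 245 CPM. Both differences were carried mainly by the first library labelled BRX.

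Among guard cell genes, 7 of 16 tested were separated above in BRXL2 (43.8%, against 18.3% of all tested loci) and 0 below (against 14.9%). Where a library labelled BRX held a count, 5 of 13 were above (38.5%, against 16.5%). The log2 fold changes of the 16 had a median of 0.97. TGG2, a myrosinase abundant in guard cells, had 47.7 and 27.6 CPM in BRXL2 against 3.57 and 5.32 CPM, with at most 0.0781 CPM in myrBRX. OST1, the kinase that closes stomata in response to abscisic acid, had 12.6 and 15.6 CPM in BRXL2 against 1.19 and 3.54 CPM (log2 fold change 2.57 ± 0.90, adjusted p = 0.462) and was highest in myrBRX, at 49.4 and 32.1 CPM. The summed level of the list did not separate the lines, at 846 and 474 CPM in BRXL2 and 208 and 762 CPM in the libraries labelled BRX.

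Chaperones keep other proteins folded under heat and other stress. Of 18 small heat shock and other heat shock protein genes tested, 12 were separated above (66.7%, against 18.3% of all tested loci). Below were 2 (11.1%, against 14.9%). The median log2 fold change was 1.60. By edgeR 0 passed the test singly, with 5 higher and 0 lower at an unadjusted p under 0.05. ATHSP22.0 (AT4G10250), a small chaperone of the endoplasmic reticulum, had 14.8 and 33.9 CPM in BRXL2 against 1.13 and 0.86 CPM (log2 fold change 4.61 ± 1.17, adjusted p = 0.347). HSP17.4 had 1129 and 1355 CPM in BRXL2 against 139 and 162 CPM. The chloroplast chaperone HSP21 had 21.7 and 25.03 CPM against 1.43 and 3.08 CPM. In myrBRX all 3 were uneven, HSP21 most of all at 191 and 4.01 CPM. GolS1, a galactinol synthase gene, had 306 and 142 CPM in BRXL2 against 17.1 and 23.3 CPM. The rapid stress genes, by contrast, gave 2 of 21 separated above and 2 below.

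Nuclear genes of photosynthesis and the loci of the chloroplast genome went opposite ways in their counts of separated members. The chloroplast list took every locus of that genome, of photosynthesis or not. Of 36 nuclear genes of mesophyll and photosynthesis, 12 were separated above in BRXL2 (33.3%, against 18.3% of all tested loci). Below were 2 (5.56%, against 14.9%). CAB1, a chlorophyll-binding antenna gene, had 38.4 and 97.7 CPM in BRXL2 against 15.3 and 18.9 CPM. Their summed level nevertheless overlapped, at 1555 and 1935 CPM in BRXL2 and 2868 and 902 CPM in the libraries labelled BRX, and the median log2 fold change of 0.84 came to 0.04 without BRXL2 replicate 2. Of 92 chloroplast genome loci tested, 2 were separated above (2.17%) and 36 below (39.1%, against 14.9%), and 78 had a log2 fold change below 0 (median -0.83). The chloroplast genome summed to 8460 and 22400 CPM in BRXL2, below the 32420 and 35960 CPM of the libraries labelled BRX. Mitochondrial loci were nearer the background, with 6 of 49 above (12.2%) and 9 below (18.4%).

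**Figure D4:**
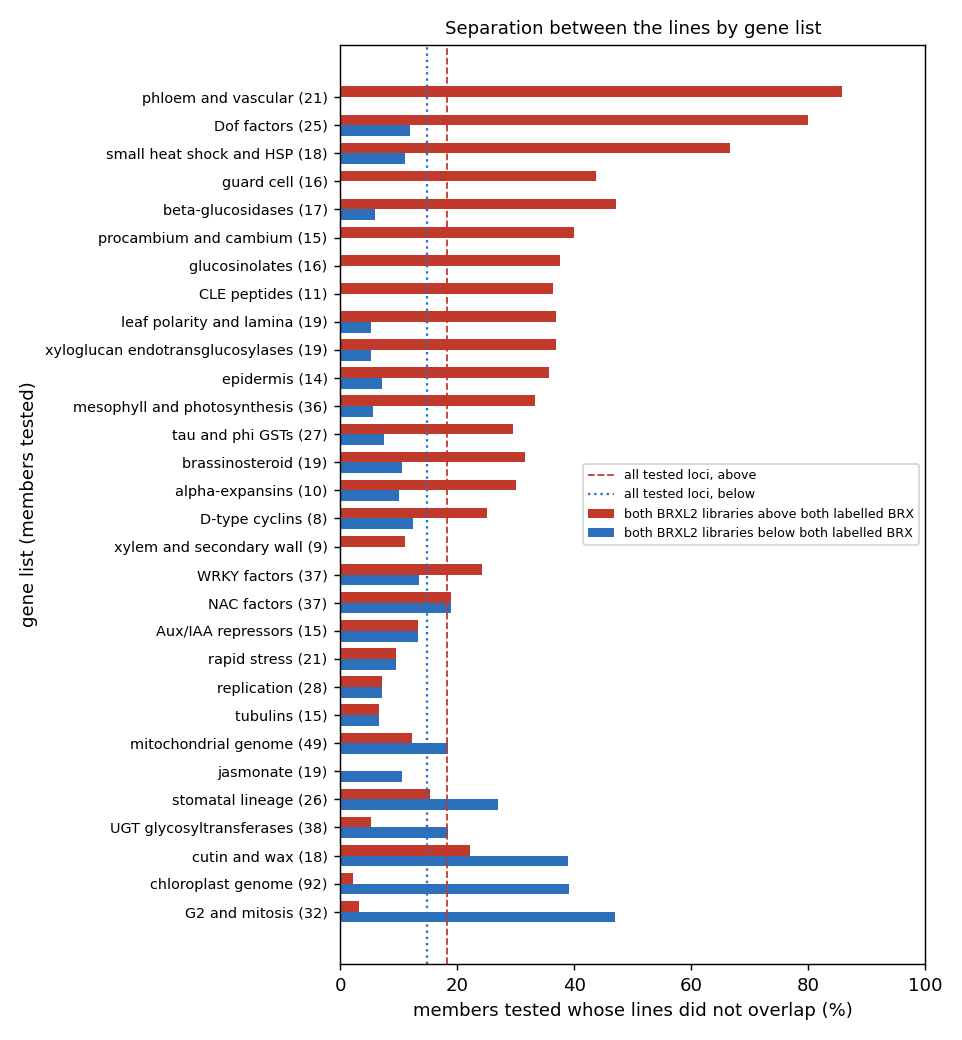
Share of the tested members of each gene list at which both BRXL2 libraries lay above (red) or below (blue) both libraries labelled BRX, for lists with at least 8 members tested, whose numbers are in brackets. The dashed and dotted lines mark the same shares over all tested loci, 18.3% above and 14.9% below; phloem markers, Dof factors and chaperones are farthest past the first line, and genes of G2 and mitosis, the chloroplast genome and cutin and wax farthest past the second.

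In the lower direction the called gene was AT3G20395, which encodes a RING/U-box protein, a class that includes many ubiquitin ligases. It had 1.40 and 0.428 CPM in BRXL2, against 118 and 209 CPM in the libraries labelled BRX, and 0.0903 and 0.286 CPM in myrBRX. The libraries labelled BRX thus stood apart from the other 4 (log2 fold change -7.47 ± 1.13, adjusted p = 0.0344, and at most 0.044 with each library left out in turn). PRA1.B1 (AT3G56110), a prenylated Rab acceptor of membrane trafficking, had 1.23 and 1.499 CPM in BRXL2 against 58.4 and 69.5 CPM, with 3.31 and 8.62 CPM in myrBRX. The BRXL2 pair and the pair labelled BRX were each tight, but the test did not pass (log2 fold change -5.55 ± 0.98, adjusted p = 0.079).

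IRX14 (AT4G36890), a glycosyltransferase of xylan backbone synthesis, had 3.15 and 2.14 CPM in BRXL2 against 94.6 and 25.2 CPM (log2 fold change -4.50 ± 0.99, adjusted p = 0.24). RWA1, which takes part in the acetylation of wall polysaccharides, had 5.78 and 4.68 CPM in BRXL2 against 24.8 and 57.3 CPM. UGT87A2 (AT2G30140), a glycosyltransferase that affects flowering time, had 1.64 and 2.86 CPM in BRXL2 against 23.4 and 27.2 CPM, while myrBRX stood with the libraries labelled BRX at 37.0 and 44.0 CPM (log2 fold change -3.49 ± 0.86, adjusted p = 0.346). The UGT glycosyltransferases as a family gave 7 of 38 separated below (18.4%, against 14.9% of all tested loci) and 2 above (5.26%, against 18.3%). RLP33, a receptor-like protein, had 0 and 0.402 CPM in BRXL2 against 17.5 and 16.9 CPM, and its myrBRX libraries disagreed at 21.6 and 0.417 CPM.

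BLH1 (AT2G35940), a BEL1-like homeodomain factor, had 29.4 and 34.7 CPM in BRXL2, against 152 and 214 CPM in the libraries labelled BRX and 140 and 230 CPM in myrBRX. BRXL2 was thus the line apart (log2 fold change -2.52 ± 0.80, adjusted p = 0.426). Its relative BEL1, named for its role in ovule integuments, had 0.978 and 3.35 CPM in BRXL2 against 15.5 and 17.1 CPM. The zinc finger gene IDD1, a promoter of germination, had 35.9 and 30.4 CPM in BRXL2 against 175 and 210 CPM. The MADS-box gene AGL30 had 3.21 and 4.95 CPM against 26.1 and 25.2 CPM. bHLH121, a regulator of iron homeostasis, had 25.8 and 20.7 CPM in BRXL2 against 206 and 102 CPM. None of these genes overlapped between the lines, and none passed the test.

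NPY5 (AT4G37590), an NPH3-family gene of auxin-dependent organ formation, had 38.2 and 32.5 CPM in BRXL2 against 160 and 164 CPM (log2 fold change -2.19 ± 0.76, adjusted p = 0.45). Here the libraries labelled BRX were apart, since myrBRX held 41.8 and 35.4 CPM. FNR1, a ferredoxin-NADP reductase of the chloroplast, had 7.10 and 7.15 CPM in BRXL2 against 49.9 and 31.8 CPM. OTP80, a plastid RNA editing factor, had 0.361 and 1.12 CPM in BRXL2 against 16.8 and 12.2 CPM. The protein kinase gene NAK had 13.5 and 19.7 CPM in BRXL2 against 76.0 and 110 CPM. Each of these 3 genes had its libraries well apart between the lines.

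**Figure D5:**
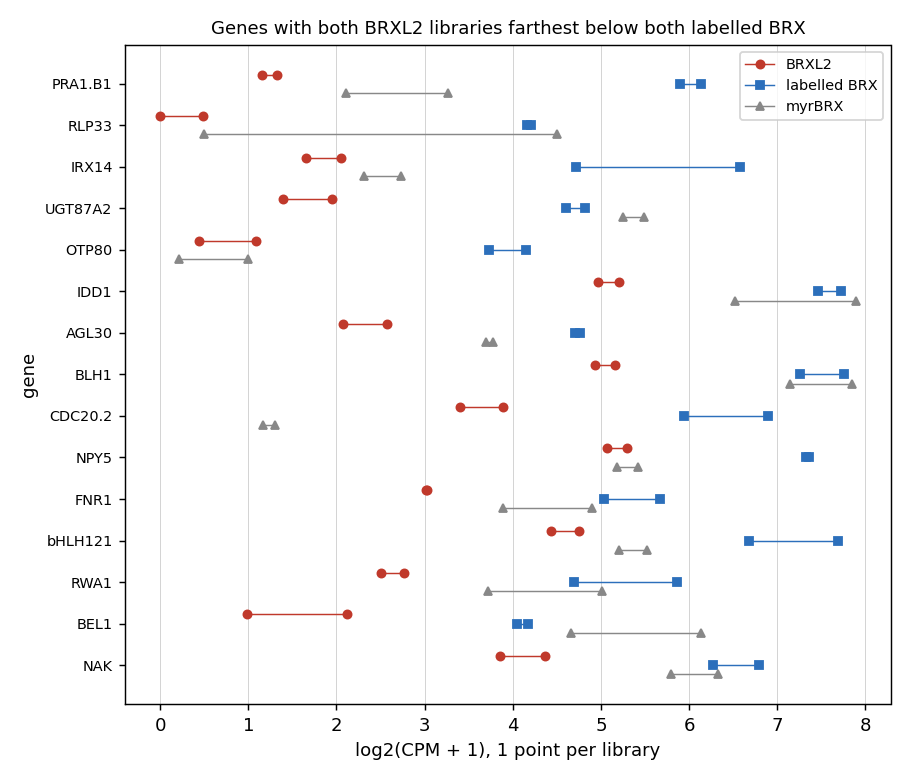
Levels per library, log2(CPM + 1), of the 15 genes with the widest gap below in BRXL2 among those with a symbol and at least 10 CPM in the libraries labelled BRX. Red circles are BRXL2, blue squares the libraries labelled BRX and grey triangles myrBRX; the triangles lie near the red circles for PRA1.B1, IRX14 and NPY5 and near the blue squares for UGT87A2 and BLH1.

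Genes of G2 and mitosis include the cyclins and kinases that carry cells through division. Of 32 tested, 15 were separated below (46.9%, against 14.9% of all tested loci) and 1 above (3.12%, against 18.3%). Among the 32, 25 had a log2 fold change below 0, and the median was -0.78. None passed singly by edgeR, with 4 lower and 0 higher at an unadjusted p under 0.05. CDC20.2 (AT4G33260), an activator of the anaphase-promoting complex, had 13.9 and 9.53 CPM in BRXL2 against 60.5 and 118 CPM, and 1.48 and 1.25 CPM in myrBRX (log2 fold change -2.93 ± 0.82, adjusted p = 0.376). AT1G63100, a GRAS-family factor, had 30.1 and 32.5 CPM in BRXL2 against 164 and 185 CPM, with 4.88 and 2.94 CPM in myrBRX (log2 fold change -2.47 ± 0.78, adjusted p = 0.426). In both genes BRXL2 lay between the other lines. The libraries labelled BRX lay close together at AT1G63100 and further apart at CDC20.2. The mitotic Aurora kinase genes did not share a direction: AUR2 had 28.4 and 30.6 CPM in BRXL2 against 1595 and 67.7 CPM, and AUR3 had 14.9 and 15.9 CPM against 3.42 and 3.97 CPM.

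Of 28 DNA replication genes, 2 were separated above and 2 below (7.14% each, against 18.3% and 14.9% of all tested loci). Of 8 D-type cyclins tested, 2 were above (25%) and 1 below (12.5%). The replication counts depended on the libraries labelled BRX: without BRX replicate 1, 20 were above, and without BRX replicate 2, 15 were below.

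Cutin and wax form the cuticle, the outer cover of the epidermis. Of 18 cutin and wax genes tested, 7 were separated below in BRXL2 (38.9%, against 14.9% of all tested loci) and 4 above (22.2%, against 18.3%). Their median log2 fold change was -0.42 and came to 0.04 without BRX replicate 2. ABCG32 (AT2G26910), a cutin precursor exporter, had 99.4 and 63.9 CPM in BRXL2 against 283 and 237 CPM (log2 fold change -1.67 ± 0.78, adjusted p = 0.567). The acyltransferase gene GPAT8 had 38.2 and 84.6 CPM in BRXL2 against 154 and 188 CPM. MYB30, a regulator of wax synthesis, had 63.0 and 74.2 CPM against 135 and 238 CPM. The broader epidermis list had 5 of 14 above (35.7%, against 18.3%) and 1 below (7.14%, against 14.9%). The member below was KCS10, a fatty acid elongase gene, at 443 and 246 CPM in BRXL2 against 2509 and 922 CPM.

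Over all tested loci, 18.3% were separated above and 14.9% below, and 16.5% were above among those with a count in a library labelled BRX. Of 19 brassinosteroid genes tested, 6 were separated above (31.6%) and 2 below, or 3 of 15 above (20.0%) where a library labelled BRX held a count. Among them were the inactivating enzyme genes CYP72C1, at 5.80 and 17.02 CPM in BRXL2 against 1.04 and 0.628 CPM, and BAS1, at 13.3 and 22.8 CPM against 1.34 and 4.76 CPM. Of 19 leaf polarity and lamina genes tested, 7 were above (36.8%) and 1 below, or 3 of 15 above (20.0%) where a library labelled BRX held a count. Of 19 xyloglucan endotransglucosylase genes, 7 were above (36.8%) and 1 below (5.26%), or 6 of 18 above (33.3%) where a library labelled BRX held a count. XTR6, of that wall-loosening family, had 5.10 and 97.8 CPM in BRXL2 against 0.671 and 0 CPM. EXPA4 (AT2G39700), an expansin, was even between its libraries at 11.7 and 10.3 CPM in BRXL2 against 0.61 and 0.0661 CPM (log2 fold change 5.01 ± 1.60, adjusted p = 0.426), while the 10 expansin genes tested had 3 above and 1 below.

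Glucosinolate genes had 6 of 16 above (37.5%) and 0 below, or 4 of 14 above (28.6%) where a library labelled BRX held a count. Among those above was NSP5, a nitrile specifier protein, at 151 and 133 CPM in BRXL2 against 26.8 and 55.1 CPM. Against 18.3% above and 14.9% below over all tested loci, tau and phi glutathione S-transferases had 8 of 27 above (29.6%) and 2 below (7.41%), WRKY factors had 9 of 37 above (24.3%) and 5 below (13.5%), and jasmonate genes 0 of 19 above and 2 below. AUX1 and LAX carriers had 2 of 3 above and 0 below, Aux/IAA repressors 2 of 15 above and 2 below, tubulins 1 of 15 above and 1 below, and trichome genes 0 of 5 above and 1 below. The LAX gene farthest apart was LAX2, an auxin influx carrier, at 9.14 and 2.81 CPM in BRXL2 against 1.25 and 0.231 CPM.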

How the data were processed

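The authors deposited 1 table of raw counts per TAIR10 locus for each library. Per the submitters' processing notes, the tool was Bowtie2 and the genome build TAIR10. How reads were counted, with or without strand and with which treatment of several alignments, is not stated there, so paralogs, overlapping genes and antisense transcripts may share counts, and a construct was counted with its endogenous gene. Symbols and products came from the TAIR10.1 annotation (32835 of 33602 loci matched, 10654 with a symbol); no coordinates were used.

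Loci were filtered with filterByExpr (minimum of 10 counts), scaled with TMM factors and fitted with edgeR 4.0.16 under R 4.3.3 (glmQLFit and glmQLFTest, two-sided, Benjamini-Hochberg over 18174 loci). The fit held all 6 libraries with 1 coefficient a line and 3 residual degrees of freedom; the biological coefficient of variation was 0.884. Limma 3.58.1 (voom) and DESeq2 1.42.0 were alternatives. The scripts were tested on simulated data. Whether libraries sharing a line came from separate plants is not stated in the labels, so p-values measure a spread between samples that may be technical. Tables of the same line were not copies (chi-square per locus 607.1 to 936.1). Floors of 3 counts, 0.0638 to 0.0992 CPM a library, and counting intervals (95%, exact Poisson) cover counting error only.

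Genes named were BRX and BRXL2, loci past the threshold, the 15 in each direction with the widest gap among nuclear genes with a symbol, at least 10 CPM in the higher line and outside the phloem list, and up to 3 separated members a list and direction with at least 5 CPM; others were chosen after their values were seen. The members and the 33 lists were chosen with earlier results of these data known. Of the list entries, 7 matched no locus. Lists are described by counts and medians, with no test of their own.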

Additional observations from a re-analysis of the deposited data

How the results depend on the processing

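The counts of loci past adjusted p 0.05, 16 higher and 1 lower in BRXL2, were the least stable values. They were 284 and 119 with no filter beyond 1 count, 4 and 0 with a minimum of 50 counts, 0 and 0 with the 4 compared libraries alone (759 and 347 at an unadjusted p under 0.05, against 1048 and 561), 0 and 0 with limma-voom (838 and 472 unadjusted) and 461 and 183 with DESeq2 (1020 lower at an unadjusted p). With the replicate number as a block they were 29 and 4. Deviations of same-numbered libraries correlated weakly, at 0.058 to 0.127. With 2 libraries a line this cannot decide whether the numbers pair the libraries. Leaving out each library gave 4 to 162 higher and 2 to 59 lower calls, 846 to 1739 and 397 to 937 loci at an unadjusted p under 0.05, 3613 to 7474 and 2715 to 6182 separated loci, and 163 to 847 and 42 to 742 widely separated ones (690 above and 742 below without BRX replicate 2, so that the larger side turned round); fewer libraries make separation easier. Wide separation also followed the pseudocount, with 413 above and 119 below at 0.25 CPM and 35 and 13 at 5 CPM. RLE, upper-quartile and nuclear-only scaling kept 151 to 155 of the 156 and 41 to 45 of the 47, and moved the median log2 fold change of all loci only to 0.017 to 0.066. Of 89 named genes recomputed, none changed direction. Most were chosen because their lines did not overlap, so leaving out a library could hardly turn them, and this says little about their stability. The values for lists were recomputed under alternatives chosen after seeing the data. Without single libraries the median of cutin and wax was -0.591 to 0.043, reversed without BRX replicate 2. Counts of members separated above were 20 to 23 for Dof factors, 18 to 22 for phloem markers, 12 to 16 for chaperones, 6 to 13 for procambium, 7 to 13 for guard cell genes and 12 to 24 for nuclear photosynthesis genes, and counts below were 14 to 26 for G2 and mitosis, 36 to 76 for the chloroplast genome, 7 to 16 for stomatal lineage and 7 to 10 for cutin and wax, over all these alternatives. Depth limits the genes at 0 in a line, whose folds are bounds.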
